A study of Danio rerio with 2 samples.

Results

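Lone close pairs are places in the zebrafish genome where 2 ATAC-seq peaks lay side by side at 4 hours post fertilization (hpf), with no other peak around them. ATAC-seq uses a transposase that inserts sequencing adapters where DNA is accessible, so that a peak marks a stretch of open chromatin. The pairs were chosen by position in the deposited peak list on chromosomes 1 to 25. A pair was taken when the gap between the end of the first peak and the start of the second was under 1000 bp and no further peak lay within 12.5 kb of either. By this rule 1159 pairs were found. Their 2318 peaks were 2.82% of the 82203 peaks on these chromosomes. They are set beside 12289 lone single peaks, which had no neighbor within 12.5 kb and made up 14.9% of the peaks.

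The peaks came from untreated wild-type Tubingen embryos at 4 hpf, with nuclei taken from whole embryos, about 300 in a tube. The study's methods name both Tubingen and Wik as its wild-type strains and do not give the strain for each assay. The 2 replicates formed 1 group that shared strain, stage and treatment, and were pooled upstream into 1 peak list from fragments of 30 to 120 bp. A peak has therefore no value per replicate. No spread between replicates and no test can be given, the read depth behind each peak is unknown, and all values below describe this 1 list. Cells of different types in the embryo, and sites open in different cells, cannot be told apart in such a list.

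The embryo at this stage has just begun to transcribe its own genome. Nucleosomes are displaced where transcription factors and the transcription machinery bind, and promoters and enhancers are the best known sites of this kind. An enhancer or promoter can hold several accessible stretches with nucleosomes between them, and short fragments such as those used here come mostly from DNA free of nucleosomes. Whether the peaks of a pair were promoters or enhancers was not examined, because no sequence or annotation of the build of the list, Zv10, was used here. Places are given by position, with starts counted from 1.

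The gaps of the pairs were short even within the limit. The smallest gap was 260 bp, which is also the smallest gap between any adjacent peaks of the list. The median was 450 bp, with quartiles of 320 and 700 bp. A gap under 500 bp was found in 651 pairs, or 56.2%. In bins of 50 bp, 205 pairs had a gap of 260 to 300 bp, and 180 had one of 300 to 350 bp. The count then fell off and stayed nearly level between 42 and 62 pairs a bin for all gaps from 500 to 1000 bp. Boundaries of peaks lay in steps of 10 bp. Whether 260 bp is a setting of peak calling is not given in the sources used here.

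**Figure D1:**
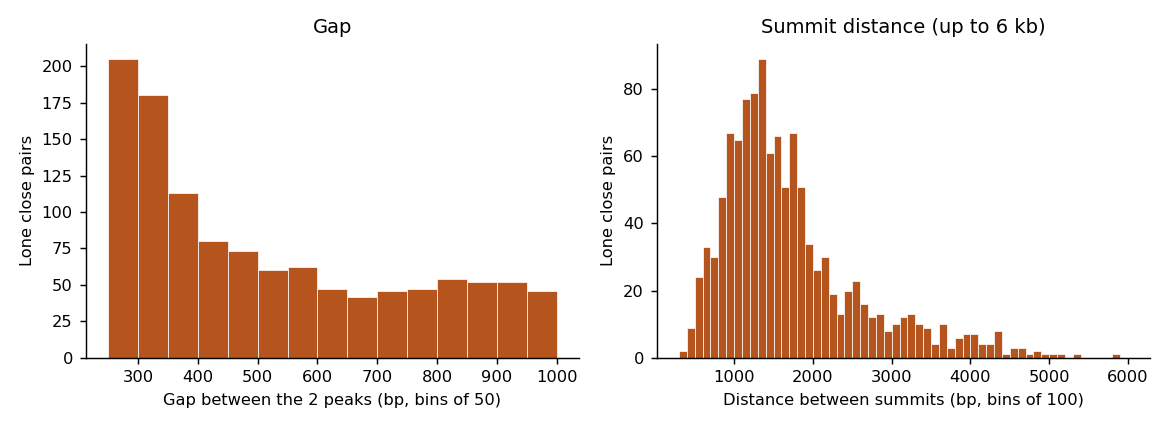
Histograms of the gap between the 2 peaks of a lone close pair (left, bp, bins of 50) and of the distance between their summits (right, bp, bins of 100, shown up to 6 kb). Bars give the number of pairs. Gaps crowded toward the smallest value of 260 bp, with 205 pairs in the first bin, while summit distances were most frequent between 1300 and 1400 bp, with 89 pairs.

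Summits are the positions of highest signal in a peak. As each lies inside its peak, the distance between summits is always longer than the gap. The median distance between the summits of a pair was 1490 bp, with quartiles of 1110 and 2040 bp. Distances of 1 to 2 kb made up 55.2% of pairs, those under 1 kb 18.4% and those of at least 3 kb 10.9%. No narrow preferred distance stood out, as the fullest bin of 100 bp, at 1300 to 1400 bp, held 89 of the 1159 pairs. The closest summits lay 335 bp apart, in a pair on chromosome 9 whose peaks ran from 52169301 to 52169910 (score 51) and from 52170181 to 52170730 (score 34). The next were 380 bp apart on chromosome 15, in peaks from 991851 to 992350 (score 35) and from 992681 to 993200 (score 76).

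Summits leaned little toward or away from the partner. Over all peaks of pairs whose summit was not at the midpoint, 1200 of 2310, or 51.9%, had it on the side of the partner. In lone single peaks 48.8% of summits lay on the right side of the midpoint. That share is not a direct baseline. The side of the partner is the right for a left peak and the left for a right peak, so a lean common to all peaks would cancel in pairs. Summits within the 10% of the width nearest the partner were 12.5% of the peaks of pairs, and those within the 10% nearest the outer edge were 10.1%. Counted together, 22.6% of summits in pairs lay that close to an edge, against 26.8% in lone single peaks. The summits were closer than the midpoints of the peaks in 575 of the 1159 pairs, or 49.6%.

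The 2 peaks of a pair were seldom equal. Each peak carries a score, whose scale is not given in the sources used here. The score of the higher-scoring peak was a median of 1.77 times that of the lower-scoring one, with quartiles of 1.28 and 3.03. The ratio was under 1.25 in 21.9% of pairs, under 2 in 57.6% and at least 5 in 14.0%. The lower-scoring peak had a median score of 90 and the higher-scoring one of 168. Neither side was favored. The left peak scored higher in 550 pairs, the right peak in 576, and 33 pairs had equal scores.

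Widths were also unequal. Median widths were 1130 bp for the wider and 650 bp for the narrower peak of a pair, and the median ratio was 1.51. The ratio was under 1.25 in 30.4% of pairs and at least 2 in 30.8%. The left peak was wider in 604 pairs, the right in 543, and 12 had equal widths. Of the 1114 pairs that differed in both measures, the wider peak also scored higher in 722, or 64.8%. The same share was 64.8% in the 13024 close pairs that had other neighbors within 12.5 kb, and 63.0% in lone pairs with a gap of 5 to 12.5 kb.

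Scores of the left and right peak were weakly related. Spearman's rho was 0.247 across the 1159 pairs, which are places of 1 pooled list and share its depth. It ranged from -0.02 to 0.55 among the 25 chromosomes, with a median of 0.22, and chromosome 4 had the highest value with 67 pairs. Without chromosome 4 rho was 0.223. Among the 403 pairs with no other peak within 25000 bp it was 0.164. For widths rho was 0.217. In the 880 pairs spanning under 4 kb rho was -0.00855 for widths and 0.264 for scores. A limit on span also limits the sum of the widths. In lone pairs with gaps of 1 to 2, 2 to 5 and 5 to 12.5 kb, rho of widths was 0.0905, 0.0129 and -0.00255.

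Scores were less equal in lone pairs with wider gaps, though no test of the difference was made. In lone pairs with a gap of 1 to 2 kb, 648 in number, the median ratio of scores was 2.04. In the 1390 with a gap of 2 to 5 kb it was 2.14, and in the 2343 with a gap of 5 to 12.5 kb it was 2.12. In the same order rho of scores was 0.208, 0.0925 and 0.0583. Close pairs with other neighbors had a median ratio of 1.96 and rho of 0.372, at higher scores, with medians of 283 for the higher-scoring and 113 for the lower-scoring peak. Within lone close pairs the median ratio was 1.57 at gaps of 260 to 300 bp, 1.66 at 300 to 500 bp, 2.04 at 500 to 750 bp and 1.82 at 750 to 1000 bp. Leaving out spans of 4 kb or more, the median over all gaps was 1.91, and in the same classes of gap it was 1.82, 1.89, 2.06 and 1.82.

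**Figure D2:**
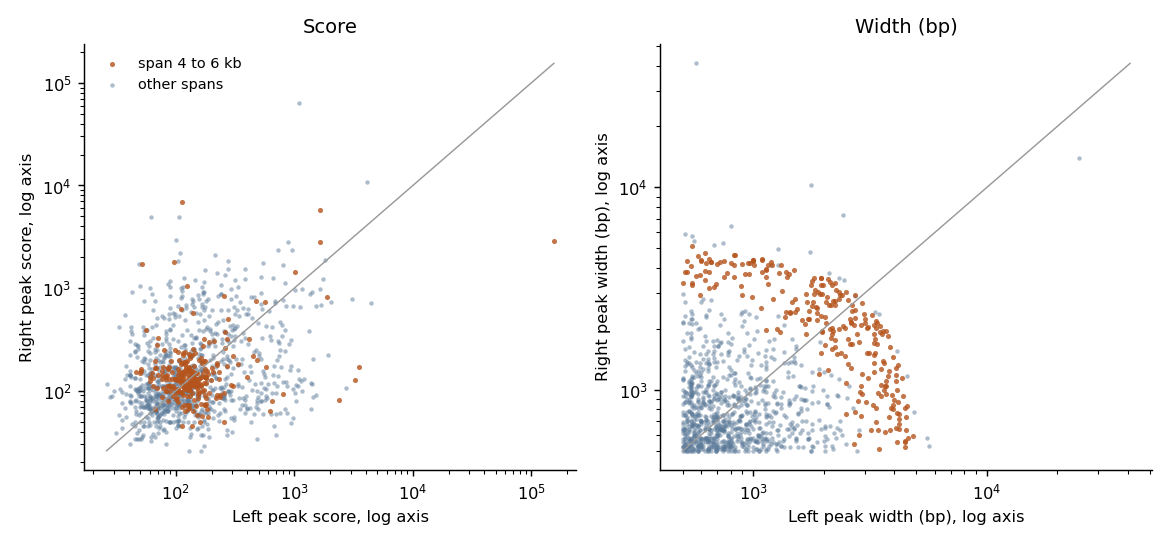
Score (left panel) and width in bp (right panel) of the left peak against the right peak of each of the 1159 lone close pairs, on log axes. Orange points are pairs spanning 4 to 6 kb from outer edge to outer edge, blue points are all other pairs, and the line marks equality. Scores scattered widely around the line, with a median ratio of 1.77, and the middle 50% of scores of the peaks in pairs spanning 4 to 6 kb ran from 105 to 170. The band of orange points in the right panel follows from the choice by span, which nearly fixes the sum of the widths.

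Peaks scoring at least 10000 were rare in pairs, as they were in the whole list. Of the 2318 peaks of pairs, 3 scored this high, each in a different pair. Among all peaks on the numbered chromosomes there were 179 in 82203, or 0.218%. Among lone single peaks there were 12 in 12289, or 0.0976%. The pair with the highest lower score lay on chromosome 18, with peaks from 7312241 to 7313590 (score 4098) and from 7313851 to 7315200 (score 10815). Both of its peaks were 1350 bp wide, and the gap between them was 260 bp. The pair next in lower score, on chromosome 15, was far less equal. Its left peak, from 11602861 to 11606110, scored 154817 and its right peak, from 11606961 to 11607800, scored 2864, a ratio of 54.1.

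The next 3 pairs by lower score had ratios of 1.03, 1.68 and 3.47. On chromosome 17, peaks from 34856021 to 34857110 (score 1822) and from 34857521 to 34858410 (score 1874) were nearly equal. On chromosome 5, peaks from 13143781 to 13146270 and from 13146871 to 13147950 scored 1659 and 2793. On chromosome 9, peaks from 5734911 to 5737090 and from 5737651 to 5739660 scored 1647 and 5711, with summits 4010 bp apart. These 3 pairs had gaps of 410, 600 and 560 bp.

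The most unequal pair, on chromosome 8, joined a peak of 570 bp that scored 62, from 31640271 to 31640840, to one of 41020 bp that scored 4981, from 31641421 to 31682440. Its scores differed 80.3 times and its widths 72.0 times. The other pairs with ratios above 46 lay on chromosome 19 from 37086681 to 37091050 (scores 113 and 6842) and from 14641151 to 14644580 (scores 107 and 4971), on chromosome 20 from 17113411 to 17125680 (scores 1091 and 63904), and in the pair on chromosome 15 given above. In each of the pairs on chromosomes 8, 19 and 20 the right peak was the higher. Ratios of at least 10 were found in 45 pairs, or 3.88%.

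The pairs with the narrowest span were 2 short peaks of middling or low score. On chromosome 16 a pair spanned 1320 bp, from 43405561 to 43406880, with peaks of 520 bp each that scored 79 and 59. On chromosome 23 a pair spanned 1330 bp, from 30288231 to 30289560, with scores of 54 and 45. On chromosome 6 a pair from 53016571 to 53017910 stood out among them, with scores of 412 and 127 in peaks of 520 and 540 bp.

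Spans, measured from the outer edge of one peak to the outer edge of the other, fell into 2 ranges. The median was 2400 bp. Counts per 250 bp were highest at 2000 to 2250 bp, with 158 pairs, and were down to 13 pairs at 3750 to 4000 bp. They then climbed to 46 pairs at 5250 to 5500 bp and ended sharply, with 35 pairs at 5750 to 6000 bp and 9 at 6000 to 6250 bp. Spans of 4 to 6 kb were found in 254 pairs, or 21.9%, and spans of 6 kb or more in 25. These limits were set after the spans were seen, so the values below describe the 254 pairs without a test.

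Pairs spanning 4 to 6 kb differed from the shorter pairs in more than length. Their median gap was 340 bp, against 490 bp in the 880 pairs under 4 kb, with 75 of the 254 at 260 to 300 bp and 68 at 300 to 350 bp. Their scores were closer to equal. The median ratio was 1.45, against 1.91 in pairs under 4 kb, and 32.3% had a ratio under 1.25, against 18.9%. The middle 50% of scores ran from 105 to 170 in the peaks of the longer pairs and from 73 to 243 in those of the shorter ones. Over the 254 pairs the left and right score had a rho of 0.03, against 0.26 in pairs under 4 kb. Whether the closer ratios went beyond what the narrower range of scores in the longer pairs gives was not tested.

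The break between the peaks had no fixed place in the pairs spanning 4 to 6 kb. The middle of the gap lay between 680 and 2855 bp from the nearer outer edge, with a median of 1542.5 bp. Counts per 250 bp ran from 24 to 42 pairs over the whole stretch from 750 to 2500 bp. The wider peak took a median of 3310 bp and the narrower one of 1295 bp. The summit of the higher-scoring peak was spread in the same way, with quartiles of 676.25 and 1900 bp from the nearer outer edge of the pair. One pair of this kind lay on chromosome 16 from 40763701 to 40769220, with peaks of 1780 and 3450 bp that scored 95 and 112 across a gap of 290 bp. Another, on chromosome 1 from 10620661 to 10626150, had peaks of 2340 and 2800 bp that scored 176 and 135 across a gap of 350 bp. On chromosome 14, from 9017471 to 9022940, the peaks were 970 and 4230 bp wide, with scores of 124 and 157 and a gap of 270 bp. These 3 are among those nearest to a span of 5.5 kb, chosen after their values were seen. Pairs of the same choice on chromosomes 7 and 19 were less equal, with ratios of scores of 1.47 and 2.13.

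The same lengths recurred in lone places with 1, 3 or 4 peaks. Lone single peaks thinned out with width, to 10 peaks at 3250 to 3500 bp. They then increased to 32 at 5000 to 5250 bp and 31 at 5750 to 6000 bp, and dropped to 8 at 6000 to 6250 bp. Between 4 and 6 kb there were 185 of them, 1.51% of lone single peaks, with a median score of 159. Lone runs of 3 peaks with both gaps under 1000 bp numbered 242, and 131 of them, or 54.1%, spanned 4 to 6 kb. Lone runs of 4 numbered 52, of which 40, or 76.9%, spanned 4 to 6 kb, while 10 were longer. For runs of 3 or 4, part of this follows from the number of peaks, since each peak was at least 500 bp wide. Runs of 5 or 6 peaks were few and mostly longer. Of 5 runs of 5 peaks, 4 spanned 6 kb or more and 1 spanned 4 to 6 kb. All 5 runs of 6 peaks spanned 6 kb or more. Spans of 5 to 6 kb against 6 to 7 kb were found in 151 and 18 pairs, 116 and 18 lone single peaks, 68 and 13 runs of 3, and 24 and 4 runs of 4. The median score in places of 4 to 6 kb was 159 for single peaks, 133 for the median over pairs, 119 for runs of 3 and 105 for runs of 4, where the score of a place with several peaks is the median of its peaks.

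**Figure D3:**
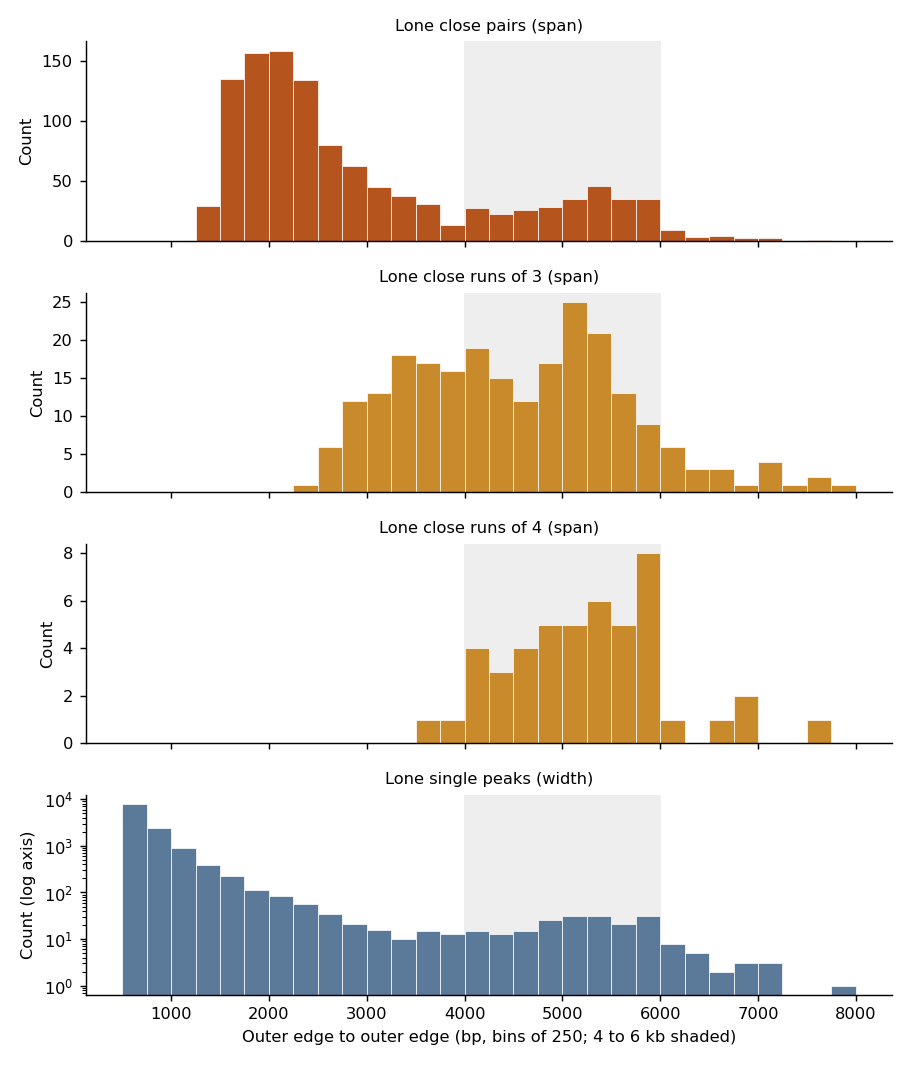
Length from outer edge to outer edge, in bp and bins of 250, of lone close pairs, lone runs of 3 peaks and lone runs of 4 peaks with all gaps under 1000 bp, and lone single peaks, whose count is on a log axis. The range from 4 to 6 kb is shaded. In all 4 panels counts dropped beyond 6 kb, and in pairs and single peaks they rose again below that limit after a low near 3.3 to 4 kb, with 46 pairs at 5250 to 5500 bp.

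Close pairs with other neighbors did not show this second rise. Their count per 250 bp fell from 443 pairs at 3750 to 4000 bp to 155 at 5000 to 5250 bp, 160 at 5250 to 5500 bp and 99 at 5750 to 6000 bp. Spans of 4 to 6 kb made up 11.7% of them, against 21.9% of lone close pairs. The measures are unlike, because close pairs with other neighbors were taken pair by pair and adjacent pairs could share a peak. A place with several close peaks therefore entered as several shorter spans, while a lone place was measured whole. Whether this explains the missing rise was not tested. Pairs of 4 to 6 kb were spread over the genome. Every one of the 25 chromosomes had between 4 and 18, and their share of the pairs of a chromosome ranged from 11.4% on chromosome 12 to 30.2% on chromosome 16. On chromosome 4 it was 14.9%.

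Peaks of lone close pairs were wider than lone single peaks. Their median width was 840 bp, against 660 bp, and 38.5% were wider than 1 kb, against 16.6%. Without the pairs spanning 4 kb or more the median width in pairs was 720 bp. Width enters the gap that defines a pair, so width and membership are not independent. Scores differed less. The median was 123 in peaks of pairs and 107 in lone single peaks, with a middle 50% of 80 to 217 against 67 to 208. Scores under 60 were rarer in pairs than in lone single peaks, at 11.3% against 19.2%. Scores of at least 500 were somewhat more frequent, at 11.1% against 8.80%. Among all peaks on chromosomes 1 to 25 these shares were 13.1% and 14.9%, and the median score was 131. Peaks of pairs thus held fewer high scores than the whole list. In 20 of the 25 chromosomes the median score was higher in peaks of pairs than in lone single peaks. The medians were equal on chromosomes 12, 14 and 23. They were lower in peaks of pairs on chromosome 4, with 134 against 146, and on chromosome 10, with 121 against 131. Without the longer pairs, the median score of peaks of pairs was 113.5.

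**Figure D4:**
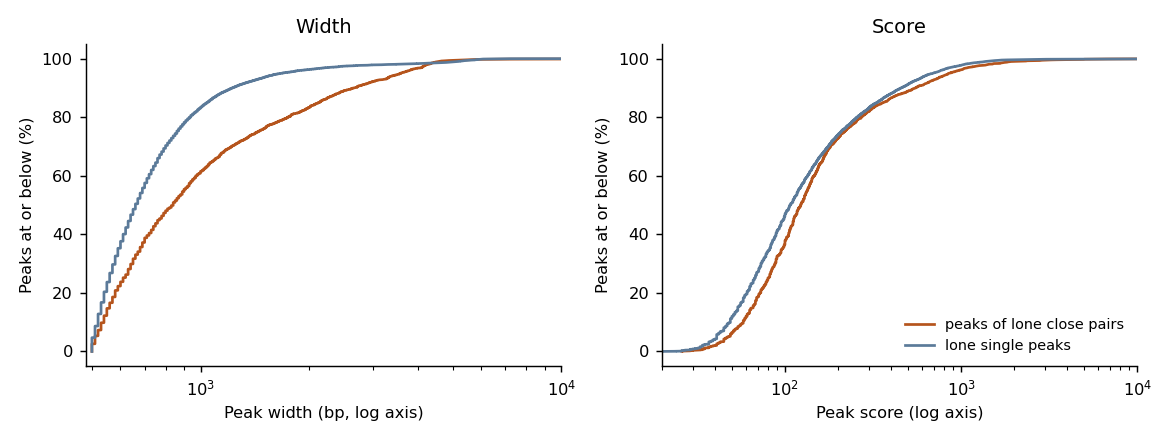
Cumulative share (%) of the 2318 peaks of lone close pairs (orange) and the 12289 lone single peaks (blue) by width in bp and by score, both on log axes that end at 10000. The curve of widths lay further right for peaks of pairs, with medians of 840 and 660 bp, while the curves of scores nearly met above 200, with medians of 123 and 107.

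The direction of the difference in score turned with width. Among peaks of 500 to 600 bp the median score was 95 in pairs and 83 in lone single peaks, and among those of 600 to 800 bp it was 101 against 100. Wider peaks of pairs scored lower than lone single peaks of like width. The medians were 120 against 141 at 800 to 1200 bp, 139 against 210 at 1200 to 2000 bp and 151 against 245.5 at 2000 to 4000 bp. Pairs spanning 4 kb or more held most of the peaks in the widest of these classes, as only 62 of its 310 peaks came from pairs under 4 kb. In pairs under 4 kb alone the medians of the same 3 classes were 133.5, 163 and 170.5, closer to those of lone single peaks and still below them. At 4000 to 6000 bp they were close, at 152.5 against 159, with 70 peaks of pairs and 185 lone single peaks. Across peaks, width and score had a rho of 0.288 in pairs and 0.338 in lone single peaks. Of 310 peaks of pairs that were 2000 to 4000 bp wide, the middle 50% of scores ran from 118.25 to 212, against 148.25 to 480 in the 250 lone single peaks of that width.

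Distances to the nearest other peak were similar for pairs and single peaks. The nearest other peak lay at a median of 20170 bp from a pair and 21420 bp from a lone single peak, beyond the 12.5 kb that the rule set. The most remote pair had its nearest other peak at 190230 bp. Within 0.5 Mb of a chromosome end, taken up to the last peak, lay 19 pairs, or 1.64%, against 0.968% of lone single peaks and 4.51% of all peaks. For every 100 lone single peaks there were 9.43 pairs over the genome. Among chromosomes this number ranged from 6.73 on chromosome 13 to 13.0 on chromosome 4. Pairs per Mb ranged from 0.615 on chromosome 9 to 1.21 on chromosome 24, with a median of 0.850. Chromosome 4 was near that median, at 0.875 pairs per Mb, and had the fewest lone single peaks per Mb, at 6.75. Pairs numbered from 27 on chromosome 25 to 68 on chromosome 5. Median summit distances per chromosome lay between 1247.5 and 1672.5 bp and median score ratios between 1.32 on chromosome 14 and 2.19 on chromosome 13.

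**Figure D5:**
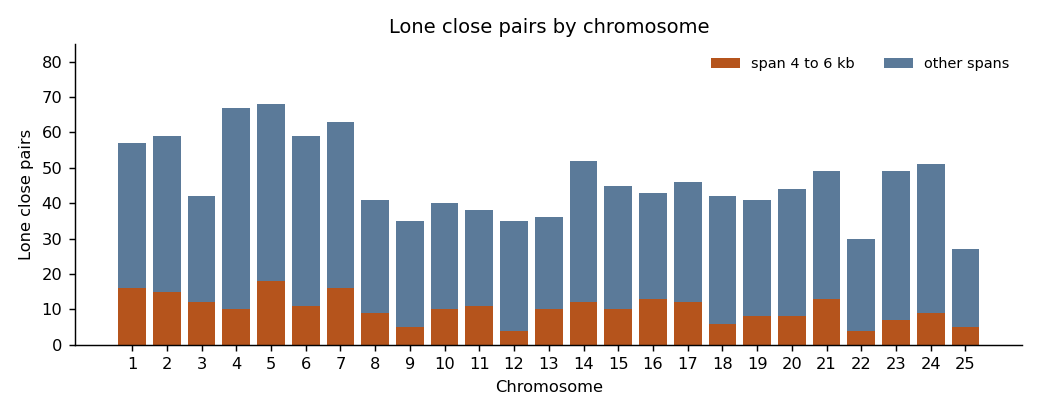
Number of lone close pairs on each of the 25 chromosomes, with pairs spanning 4 to 6 kb in orange and all other pairs stacked above them in blue. Counts ran from 27 on chromosome 25 to 68 on chromosome 5, and every chromosome held at least 4 pairs of 4 to 6 kb.

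Pairs just inside and just outside the gap limit of 1000 bp are given as a description. The 46 pairs with gaps of 950 bp or more had a median summit distance of 1840 bp, a median ratio of scores of 2.15, a median lower score of 82 and a median higher score of 199.5. The 55 lone pairs just outside, with gaps of 1000 to 1040 bp, had a median summit distance of 1815 bp, a median ratio of 2.35, a median lower score of 112 and a median higher score of 344. The left peak scored higher in 19 of the 46 pairs just inside and in 33 of the 55 just outside. Pairs on chromosomes 10, 20, 21 and 22 shared the largest gap inside the limit, 990 bp. The pair on chromosome 10 had peaks from 37324801 to 37325320 (score 474) and from 37326311 to 37326810 (score 69). The pair on chromosome 22, from 6286511 to 6289080, scored 201 and 353. Those on chromosomes 20 and 21 had ratios of scores of 1.72 and 1.28. On the outside, at a gap of 1000 bp, a pair on chromosome 1 from 312421 to 316560 scored 162 and 318 and one on chromosome 11 from 31736741 to 31739600 scored 56 and 324. Across all lone places with exactly 2 peaks, counts per 500 bp of gap were 651 under 500 bp, 508 from 500 bp up to the limit and 340 just beyond it, and they declined to 127 at 12 to 12.5 kb.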

How the data were processed

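ATAC-seq of 4 hpf wild-type zebrafish embryos (2 replicates of 1 group) was used as 1 deposited peak list. Per the labels and the study's methods, the authors aligned reads to Zv10 with Novoalign (3.8 in the submitters' processing notes), placing multiply mapping reads at random, used SAMtools to merge technical replicates, and took fragments of 30 to 120 bp into peak calling (Multi-Replica Macs ChIPSeq Wrapper, cutoff 2) after scaling both replicates to the smaller depth. Reads placed at random over near-identical copies can give peaks in each copy. The score of a peak is used as deposited, and its scale is not given in the sources used here. Columns of fold enrichment, p and q hold only 0 and were not used.

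Pairs, single peaks and runs were found from peak starts and ends. The gap is the start of the second peak minus the end of the first, in the coordinates of the list. Ratios are the larger over the smaller value. Medians, quartiles, shares and Spearman's rho are descriptions without a test. Pairs with equal widths or scores, and summits at the midpoint, were left out of the shares of sides. Chromosome length was taken to the end of the last peak. Pair finding was tested on simulated data. The members, limits and named places (the 5 pairs first by lower score, score ratio, summit distance, span and nearness to the gap limit, a selection of which is given) were chosen with earlier results of these data known. Sequence features, motifs and nearest genes were planned and not run, since no genome or annotation of Zv10 was used here. Depth per replicate is unknown, so no counting interval is given. Alternatives were other gap limits, isolation distances, score limits and chromosome sets. Calculations ran in Python 3.11.15 with scipy 1.17.1, numpy 2.4.6 and pandas 2.3.3, and plots were drawn with matplotlib 3.10.9.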

Additional observations from a re-analysis of the deposited data

Results flagged for a closer look

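Unplaced scaffolds, which no comparison above used, held 60 pairs that met the same rule, and they are named here as signal outside the chromosomes. Their median gap was 450 bp and their median ratio of scores 2.05, and 10 of them spanned 4 to 6 kb. In 31 of the 60 no other peak lay on the scaffold, so that isolation could not be judged up to 12.5 kb there, and only 5 had another peak on both sides.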

How the results depend on the processing

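Of 72 values (8 results under 9 alternatives), 59 stayed within a range set around the reported value and 13 moved outside it. The range was a 95% interval, binomial for shares, by rank for medians and by Fisher's transformation for rho. For the number of pairs it was within 1.5 times. The intervals take peaks and pairs of 1 pooled list as independent, so they serve as a yardstick and not as a test. The number of pairs was 1807 with a gap limit of 2000 bp, 2791 with an isolation of 5000 bp and 403 with one of 25000 bp, as the limits themselves set. The median summit distance was 1392.5 bp with a gap limit of 750 bp and 1820 bp with 2000 bp, and with 2000 bp the median ratio of scores was 1.84 and the median width of peaks 770 bp. The median score was 129 with an isolation of 5000 bp, and rho of scores was 0.164 with 25000 bp. Restricting to the pairs spanning under 4 kb, an alternative chosen after seeing the data, gave a median summit distance of 1350 bp, ratio of scores of 1.91, width of 720 bp and score of 113.5. None of the 8 results moved outside its range with a minimum score of 40 or with unplaced scaffolds added. The same held without the pairs that had a peak scoring at least 10000, and without chromosome 4. Except for the minimum score, these alternatives only added or removed pairs, giving 1219, 1156 and 1092 against 1159. They therefore left little room to move. No paired analysis was possible because pooling left 1 list for both replicates, and neither could be left out.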
